A study of Homo sapiens with 6 samples.

Results

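The 13 integrin subunit genes listed in RNA sequencing tables of 92.1 cells, a human ocular melanoma line, are described here in control cells and in cells with ALKBH3 knocked down. They were found among 11387 genes with listed transcripts, as the alpha and beta subunits of the integrin family, by name and not by their difference. Listing itself depends on level, since every listed transcript had a mean of at least 0.5 FPKM in the group where it was higher. Of 26 human integrin subunit genes, 8 of 18 alpha genes and 5 of 8 beta genes were listed. The remaining 13 (ITGA2B, ITGA8, ITGA9, ITGA10, ITGA11, ITGAD, ITGAE, ITGAL, ITGAM, ITGAX, ITGB2, ITGB6 and ITGB7) had no listed transcript, and their level is not given by these tables. The controls are 3 libraries titled NC (genotype given as wild type). The other 3, titled shALKBH3, have the genotype ALKBH3 knockdown, where sh is the usual prefix for a short hairpin RNA. All 6 come from the same cell line kept in serum-supplemented medium. The labels give no hairpin sequence, and leave unsaid whether NC cells received a control hairpin and whether the knockdown cells are a clone. Nor do they state that libraries of a group are separate cultures. The p-values therefore reflect the spread among these libraries alone, which may be technical. The comparison asked how gene expression differs after loss of ALKBH3, a demethylase of alkylated DNA and of 1-methyladenosine in RNA.

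Integrins are cell surface receptors made of 1 alpha and 1 beta subunit. The pair binds matrix proteins such as laminin, collagen or fibronectin outside the cell, and the short tail of the beta subunit binds talin and kindlin inside it, which link the receptor to actin. Beta 1 pairs with most alpha subunits, alpha V with several beta subunits, and beta 4 with alpha 6 alone, in hemidesmosomes that anchor keratin filaments. In melanocytic cells integrins are known for attachment to basement membrane and for migration.

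The tails are the part by which several members and their spliced forms differ, so coding ends are shown first, for each listed beta subunit except beta 4, whose much longer tail is of another kind, and for the spliced forms of alpha 3 and alpha 6. The sequences are the last 120 coding bases (40 codons, stop codon left out), 5′ to 3′. They come from the GENCODE release 29 transcripts ITGB1-201, ITGB1-205, ITGB3-201, ITGB5-201 and ITGB8-201. Capitals mark codons of NPxY, a motif of several beta tails, and other sites that may bind talin or kindlin are not marked.
ITGB1 beta1A: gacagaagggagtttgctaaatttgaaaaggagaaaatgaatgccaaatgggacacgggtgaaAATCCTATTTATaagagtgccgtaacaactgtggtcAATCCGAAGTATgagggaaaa
ITGB1 beta1D: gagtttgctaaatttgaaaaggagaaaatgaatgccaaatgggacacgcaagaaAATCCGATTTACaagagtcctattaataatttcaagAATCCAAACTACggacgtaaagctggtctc
ITGB3: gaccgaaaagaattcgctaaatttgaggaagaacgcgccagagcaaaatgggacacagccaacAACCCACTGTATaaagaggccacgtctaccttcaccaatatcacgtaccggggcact
ITGB5: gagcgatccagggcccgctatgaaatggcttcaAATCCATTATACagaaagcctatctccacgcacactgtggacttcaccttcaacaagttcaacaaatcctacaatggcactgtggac
ITGB8: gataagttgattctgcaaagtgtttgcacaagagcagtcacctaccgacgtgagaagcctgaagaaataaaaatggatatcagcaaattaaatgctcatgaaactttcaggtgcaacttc
Both beta 1 forms hold 2 NPxY motifs in this stretch, ITGB3 and ITGB5 hold 1 each and ITGB8 holds 0. Beta1A is the common form of beta 1 and beta1D the form of striated muscle.

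The laminin receptors alpha 3 and alpha 6 are each made with an A or a B tail from alternative exons. Their coding ends from ITGA3-202, ITGA3-201, ITGA6-201 and ITGA6-202 follow, with the stretch that differs between A and B in capitals, 106 and 151 bases in alpha 3 and 100 and 154 bases in alpha 6.
ITGA3 alpha3A: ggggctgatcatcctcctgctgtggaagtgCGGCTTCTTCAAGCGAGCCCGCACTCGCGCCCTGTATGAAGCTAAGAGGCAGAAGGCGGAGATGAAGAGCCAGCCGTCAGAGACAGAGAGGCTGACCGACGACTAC
ITGA3 alpha3B: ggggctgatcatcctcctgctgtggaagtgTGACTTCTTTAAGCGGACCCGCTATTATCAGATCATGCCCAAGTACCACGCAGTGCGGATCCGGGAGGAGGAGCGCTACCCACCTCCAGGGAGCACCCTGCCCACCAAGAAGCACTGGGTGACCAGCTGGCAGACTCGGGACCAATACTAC
ITGA6 alpha6A: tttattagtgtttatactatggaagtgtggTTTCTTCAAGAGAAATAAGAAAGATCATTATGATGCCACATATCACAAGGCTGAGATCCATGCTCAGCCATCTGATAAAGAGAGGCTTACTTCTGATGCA
ITGA6 alpha6B: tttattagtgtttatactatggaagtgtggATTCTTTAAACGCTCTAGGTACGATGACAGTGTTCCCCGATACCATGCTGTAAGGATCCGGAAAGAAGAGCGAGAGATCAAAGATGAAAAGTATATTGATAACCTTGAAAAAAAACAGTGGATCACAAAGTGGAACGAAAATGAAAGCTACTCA
The GFFKR motif next to the membrane, which pairs the alpha tail with the beta tail, was encoded by a complete transcript of all 8 listed alpha genes. In alpha 3 this was the alpha3A transcript ITGA3-202, while the complete alpha3B transcript ITGA3-201 did not encode GFFKR.

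Values are FPKM (fragment numbers divided by transcript length and by library size), summed over the listed transcripts of a gene, and read depth is unknown. ALKBH3 itself was at 10.5, 10.6 and 9.19 FPKM in NC replicates 1 to 3 and at 3.29, 3.60 and 4.24 FPKM in shALKBH3 replicates 1 to 3, a log2 change of -1.24 (limma adjusted p = 0.0079). Listed FPKM summed to between 340950 and 361268 in NC and between 326875 and 333987 in shALKBH3 libraries. Of 8 melanocyte markers only MITF was listed, at 3.29 to 9.53 FPKM in NC and 10.3 to 14.0 FPKM in shALKBH3 (limma adjusted p = 0.31), and PMEL, MLANA, TYR, TYRP1, DCT, SOX10 and S100B were not, so the cells are called by their label alone. None of 7 endothelial and none of 5 platelet markers was listed. Of 8 immune markers 1 was listed, CD68, a lysosomal protein of macrophages, at 14.7 to 18.9 FPKM in NC and 33.8 to 37.4 FPKM in shALKBH3 (limma adjusted p = 0.010), while PTPRC, ITGB2 and CD14 were not listed. The part of any such cells in the results was not tested. The 5 listed of 8 fibroblast markers, mostly FAP and COL1A1, summed to between 55.3 and 74.9 FPKM in NC and between 62.2 and 64.2 FPKM in shALKBH3. Among them COL1A2 and COL3A1 were at 7.2 and 5.5 FPKM in NC replicate 1. In any other library they were at most at 0.78 and 0.97 FPKM. The 3 listed of 7 epithelial markers, mostly KRT8 and KRT18, summed to between 429.9 and 514 FPKM in NC and between 458 and 578 FPKM in shALKBH3.

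ITGB1 was the most abundant integrin RNA in every library, and the 13 genes fell into 4 bands. Its level ran from 426.5 to 771 FPKM over the 6 libraries, above ITGA3 (123 to 172 FPKM), which encodes the alpha 3 chain of a laminin receptor. ITGA3 in turn lay above ITGB5, the beta 5 partner of alpha V (58.0 to 82.4 FPKM). From ITGB5 down through ITGA5, ITGA6, ITGAV, ITGB4, ITGA4 and ITGA7, each gene's range over both groups overlapped that of the next. Within every single library, though, ITGA5 lay above ITGA6 and ITGB4 above ITGA4. Below ITGA7, whose lowest value was 6.59 FPKM, came ITGA1, ITGB8, ITGB3 and ITGA2, with a highest value of 3.59 FPKM and overlapping ranges. ITGB1 made up between 82.9% and 89.8% of the FPKM of the 5 beta genes. ITGA3 made up between 42.7% and 53.3% of the FPKM of the 8 alpha genes. The laminin-binding alpha genes ITGA3, ITGA6 and ITGA7 together held between 60.7% and 66.3%.

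**Figure D1:**
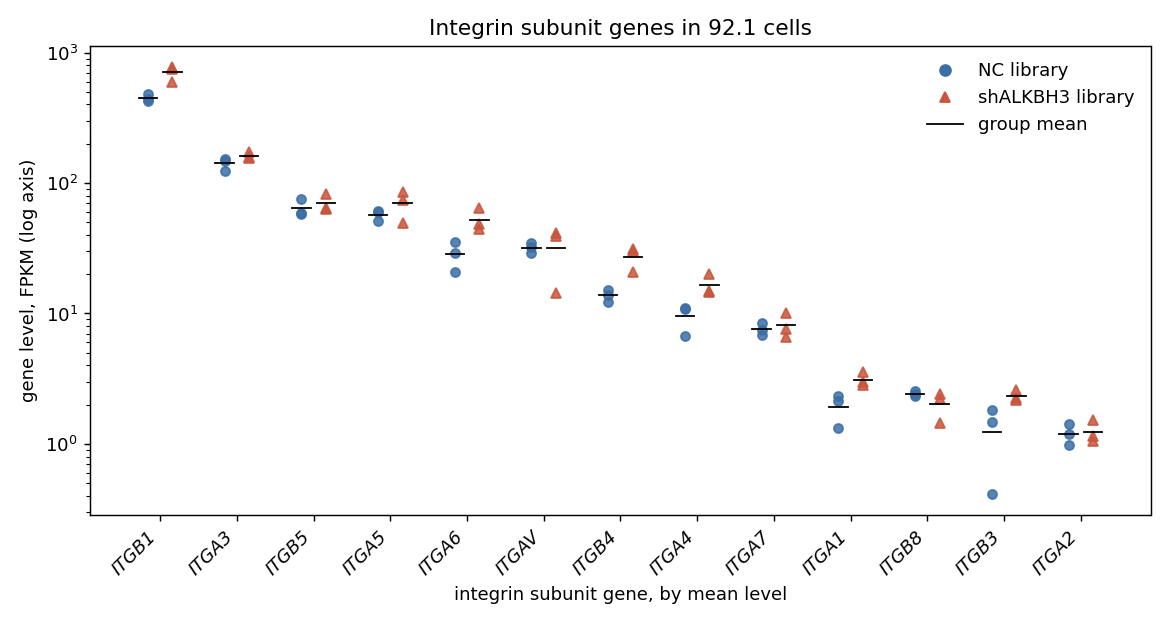
Level of each integrin subunit gene in FPKM on a log axis, genes ordered by mean level; circles are the 3 NC libraries, triangles the 3 shALKBH3 libraries and short lines group means. ITGB1 lies above all other genes in both groups, and its shALKBH3 libraries (591 to 771 FPKM) lie above its NC libraries (426.5 to 479.8 FPKM).

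None of the 13 integrin genes passed the test between the groups, where 1.76% of 10475 tested genes did, 1.28% higher in shALKBH3 and 0.477% lower (limma, adjusted p under 0.05). At an unadjusted p under 0.05 there were 5 (ITGB1, ITGB4, ITGA6, ITGA4 and ITGA1), all with higher means in shALKBH3, against 17.1% of all tested genes in either direction, 8.98% higher and 8.15% lower. In 7 genes (these 5, ITGA3 and ITGB3) every shALKBH3 library lay above every NC library, in 0 every one lay below, and in 6 the groups overlapped. Among all tested genes 24.9% did not overlap between the groups, 12.9% with shALKBH3 higher. The median log2 difference was 0.26 over the 13 genes and -0.01 over all genes tested, on the log2(FPKM + 1) scale, which understates differences of low genes. Differences were positive in 11 of the 13, against 48.7% of all tested genes, and negative in ITGAV and ITGB8. The sign of ITGA2, ITGA7 and ITGAV turned under some alternatives, for ITGA2 also under the length and GC correction. After a correction for transcript length and GC content the median of the 13 was 0.28, and with every library scaled to the same total it was 0.35, where the median of all genes was 0.07. Leaving out shALKBH3 replicate 3 gave 0.48, leaving out shALKBH3 replicate 2 gave 0.21, and taking each gene as its most abundant transcript gave 0.38. In bulk RNA, fewer cells carrying a transcript and less of it per cell cannot be told apart.

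**Figure D2:**
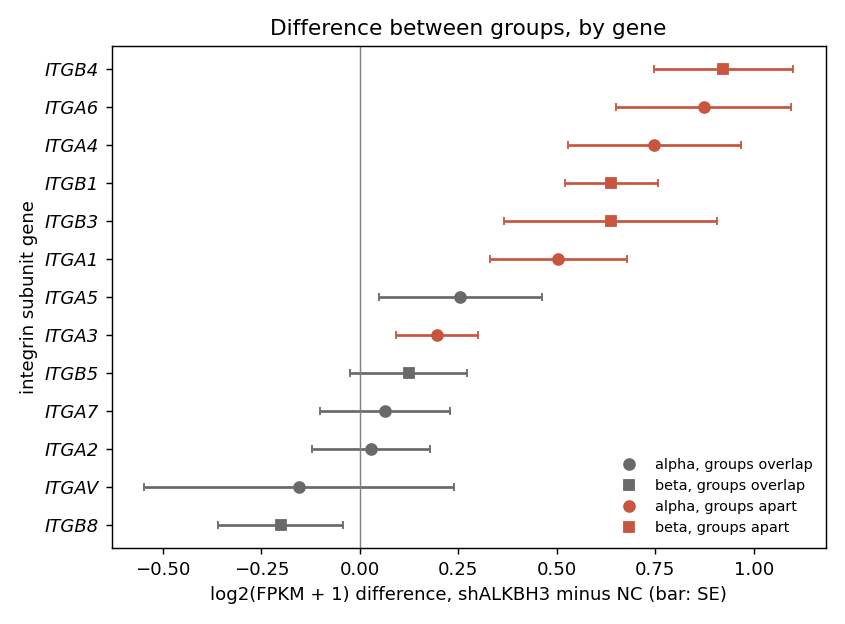
Difference of each gene between groups, shALKBH3 minus NC, in log2(FPKM + 1) with its standard error; circles are alpha and squares beta genes, and red marks genes whose 2 groups did not overlap. The differences run from -0.20 (ITGB8) to 0.92 (ITGB4), and none passed the adjusted threshold.

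ITGB1 (ENSG00000150093, chromosome 10) encodes the beta 1 chain, the partner of most alpha subunits. It was at 479.8, 441 and 426.5 FPKM in NC replicates 1 to 3 and at 591, 771 and 749 FPKM in shALKBH3 replicates 1 to 3. The groups did not overlap, and shALKBH3 replicate 1 was the lowest of its group. Means were 449 ± 27.6 and 704 ± 98.5 FPKM (SD, 3 libraries each), a ratio of 1.57. The log2 difference was 0.64 (SE 0.118, limma adjusted p = 0.068). It passed with libraries scaled to equal totals (0.73, adjusted p = 0.044), after quantile normalization (0.86, 0.037), after the length and GC correction (0.54, 0.031), with array weights (0.64, 0.025) and without shALKBH3 replicate 1 (0.76, 0.034), and over all alternatives the limma adjusted p ran from 0.025 to 0.23.

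Beta 1 had 9 listed transcripts, and the split among them varied between libraries. ITGB1-201 was at 444, 182 and 269.9 FPKM in NC replicates 1 to 3 and at 546, 745 and 719.7 FPKM in shALKBH3 replicates 1 to 3. ITGB1-202 was at 2.79, 213 and 137 FPKM in NC and at 1.43, 1.06 and 1.11 FPKM in shALKBH3. Its lower mean in shALKBH3 thus rested on NC replicates 2 and 3, while NC replicate 1 lay close to the shALKBH3 libraries (log2 difference -4.46, limma adjusted p = 0.47 over 19765 transcripts, and -6.29, adjusted p = 0.0074, without NC replicate 1). ITGB1-201 and ITGB1-202 have identical coding sequences, the beta1A form, and differ outside it. Summed, the beta1A transcripts were at 446, 395 and 407 FPKM in NC and at 548, 746 and 721 FPKM in shALKBH3, again without overlap. ITGB1-205, whose coding end is the beta1D form, was at 11.5, 23.4 and 0.053 FPKM in NC and at most 0.188 FPKM in shALKBH3. NC replicate 3 thus lay with the knockdown libraries (limma adjusted p = 0.53).

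ITGB4 and ITGA6 encode the 2 chains of the hemidesmosome laminin receptor. They had the largest log2 differences of the family at a pseudocount of 1 with all 6 libraries. At a pseudocount of 0.1 ITGB3 (1.07) lay above ITGB4 (0.97) and ITGA6 (0.90). With the most abundant transcript ITGA7 (1.28, limma adjusted p = 0.45) and ITGB1 (1.25, 0.23) lay above ITGA6 (0.38). Without NC replicate 2 ITGA4 (0.862) lay above ITGB4 (0.847). ITGB4 (ENSG00000132470, chromosome 17) was at 15.2, 12.2 and 13.8 FPKM in NC and at 29.9, 20.6 and 31.4 FPKM in shALKBH3. All 3 knockdown libraries lay above all 3 controls, with shALKBH3 replicate 2 closest to them. The means of 13.8 ± 1.49 and 27.3 ± 5.83 FPKM (SD, 3 libraries each) differed by a ratio of 1.99, with a log2 difference of 0.92 (SE 0.177, limma adjusted p = 0.075). It passed with equal totals (1.01, limma adjusted p = 0.044), after the length and GC correction (0.99, 0.037), with array weights (0.94, 0.034) and without shALKBH3 replicate 2 (1.11, 0.042). ITGB4 had 5 listed transcripts, and the one with the highest mean, ITGB4-206, made up between 10.5% and 71.1% of the gene. It overlaps GALK1, a listed gene on the other strand, and whether counting used strand is not given in the sources used here.

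ITGA6 (ENSG00000091409, chromosome 2) was at 29.2, 35.1 and 20.8 FPKM in NC and at 44.5, 64.4 and 48.3 FPKM in shALKBH3. The lowest knockdown library lay above the highest control. Means were 28.4 ± 7.18 and 52.4 ± 10.6 FPKM (SD, 3 libraries each), with a log2 difference of 0.87 (SE 0.222, limma adjusted p = 0.14) that was 0.38 (adjusted p = 0.71) with the most abundant transcript alone. By tail, the alpha6B transcripts, 3 of the 4 listed, summed to 22.7, 29.1 and 16.2 FPKM in NC and to 36.1, 56.9 and 39.8 FPKM in shALKBH3. The alpha6A transcript ITGA6-201 was at 6.54, 6.07 and 4.65 FPKM in NC and at 8.39, 7.48 and 8.44 FPKM in shALKBH3. Both forms were thus higher in every knockdown library than in any control, and alpha6B was the major form in each, at 77.6% to 88.4% of the gene. Within alpha6B the split was unstable: ITGA6-207 was listed at 0 in NC replicate 2 and shALKBH3 replicate 3 and at 39.0 FPKM in shALKBH3 replicate 2. The ratio of ITGA6 to ITGB4 averaged 2.10 ± 0.700 over NC and 2.05 ± 0.928 over shALKBH3 libraries (SD of 3), a difference within the spread.

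**Figure D3:**
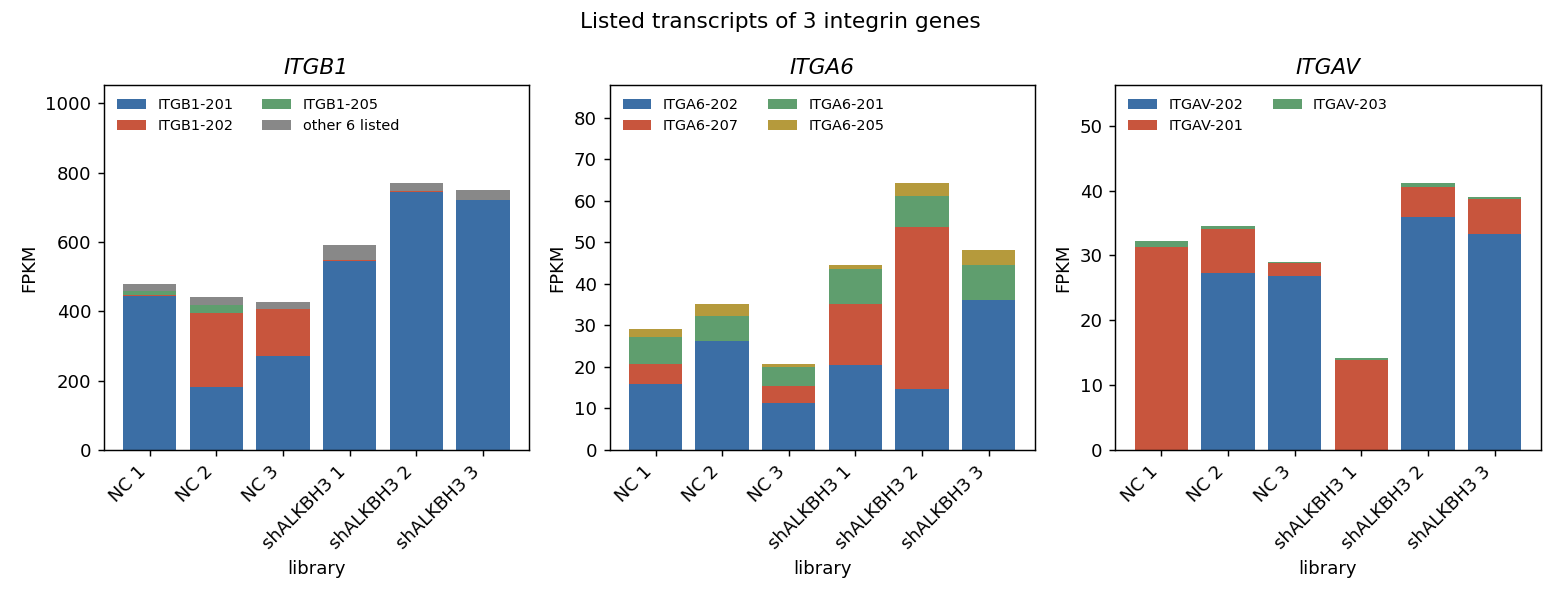
Stacked FPKM of the listed transcripts of ITGB1, ITGA6 and ITGAV in each library (NC 1 to 3, shALKBH3 1 to 3). The split among transcripts varies between libraries, as with ITGB1-202 at 213 FPKM in NC replicate 2 and 1.06 FPKM in shALKBH3 replicate 2, and ITGAV-202 listed at 0 in NC replicate 1 and shALKBH3 replicate 1.

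ITGA3 (ENSG00000005884, chromosome 17), the other abundant laminin receptor chain, was at 153, 149 and 123 FPKM in NC and at 172, 158 and 156 FPKM in shALKBH3. The groups came apart by a small gap only, between 153 and 156 FPKM, and the log2 difference was 0.20 (SE 0.103, limma adjusted p = 0.38), and 0.098 without NC replicate 3. Its alpha3A transcript held 88.1% to 94.6% of the gene and alpha3B 2.0% to 7.9%. In these cells alpha 3 was thus mainly listed with the A tail and alpha 6 mainly with the B tail. ITGA7 (ENSG00000135424, chromosome 12), a laminin receptor chain best known from muscle, was at 7.50, 6.89 and 8.49 FPKM in NC and at 10.2, 6.59 and 7.61 FPKM in shALKBH3 (log2 difference 0.06, limma adjusted p = 0.86). The difference became 1.28 (SE 0.649, limma adjusted p = 0.45) with its most abundant transcript, ITGA7-206, alone. ITGA7-206 was at 4.18, 0 and 0.468 FPKM in NC and at 5.42, 3.19 and 3.05 FPKM in shALKBH3. ITGA7-213 went the other way, at 0, 4.51 and 2.85 FPKM in NC and at 0 in every shALKBH3 library. The groups of ITGA7 overlapped, all 4 listed transcripts share their last 60 coding bases, and the gene overlaps 3 listed genes on the other strand, METTL7B, BLOC1S1 and BLOC1S1-RDH5.

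The collagen receptor alpha chains ITGA1 and ITGA2 were low. ITGA1 (ENSG00000213949, chromosome 5), which prefers collagen IV, was at 2.12, 2.34 and 1.33 FPKM in NC and at 2.81, 3.59 and 2.96 FPKM in shALKBH3. These groups did not overlap (log2 difference 0.50, SE 0.174, limma adjusted p = 0.23), and PELO, a listed gene on the same strand, lies within the span of ITGA1. ITGA2 (ENSG00000164171, chromosome 5), which prefers fibrillar collagen, was at 1.19, 1.42 and 0.975 FPKM in NC and at 1.06, 1.52 and 1.16 FPKM in shALKBH3. Its groups overlapped, with a log2 difference of 0.03 (limma adjusted p = 0.93) that was -0.14 after the length and GC correction.

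Of the fibronectin receptor alpha chains ITGA4 and ITGA5, ITGA4 (ENSG00000115232, chromosome 2) was the one whose groups came apart. Alpha 4, which binds fibronectin and the vascular ligand VCAM1, was at 10.9, 11.1 and 6.67 FPKM in NC and at 14.6, 20.1 and 14.9 FPKM in shALKBH3 (log2 difference 0.75, SE 0.219, limma adjusted p = 0.18). Its transcript with a complete coding sequence, ITGA4-203, was likewise higher in each knockdown library (5.85, 8.94 and 6.62 against 10.8, 10.2 and 13.2 FPKM). The incomplete ITGA4-201 overlapped between groups and held between 0.7% and 49.0% of the gene. ITGA5 (ENSG00000161638, chromosome 12), the alpha chain of the classical fibronectin receptor, was at 50.8, 59.9 and 60.7 FPKM in NC and at 85.4, 74.7 and 49.6 FPKM in shALKBH3. Here shALKBH3 replicate 3 lay below every control, while the other two lay above them (log2 difference 0.26, limma adjusted p = 0.55, and 0.48, adjusted p = 0.27, without that library). The difference was 0.095 without shALKBH3 replicate 1 and 0.174 without NC replicate 1.

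Alpha V and its beta partners bind RGD-containing ligands such as vitronectin and latent TGF-beta, and none of them passed the test. ITGAV (ENSG00000138448, chromosome 2) was at 32.3, 34.6 and 29.04 FPKM in NC and at 14.3, 41.3 and 39.1 FPKM in shALKBH3. One knockdown library, replicate 1, lay below all controls and the other two above them, so that the log2 difference of -0.15 (limma adjusted p = 0.86) became 0.32 (SE 0.105, adjusted p = 0.23) without it. The 2 long ITGAV transcripts traded places between libraries: ITGAV-202, with 108 fewer coding bases, was listed at 0 in NC replicate 1 and shALKBH3 replicate 1 and held 78.8% to 92.4% of the gene in the other 4 libraries. ITGB5 (ENSG00000082781, chromosome 3) was at 59.2, 74.9 and 58.0 FPKM in NC and at 64.5, 62.8 and 82.4 FPKM in shALKBH3 (log2 difference 0.12, limma adjusted p = 0.70). Its groups overlapped, with NC replicates 1 and 3 below every knockdown library.

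ITGB3 (ENSG00000259207, chromosome 17), the beta 3 chain long studied in melanoma invasion, was at 1.82, 1.47 and 0.414 FPKM in NC and at 2.61, 2.17 and 2.25 FPKM in shALKBH3. The lowest control set much of the difference (log2 0.64, SE 0.271, limma adjusted p = 0.30, and 0.34, adjusted p = 0.44, without NC replicate 3). Of its 2 listed transcripts ITGB3-202 averaged 0.384 FPKM over NC and 0.712 FPKM over shALKBH3, and reached 0.5 FPKM on average in shALKBH3 alone. ITGB3-202 was at 0 in NC replicate 3. In the transcript fit ITGB3-201 alone gave 0.52 (limma adjusted p = 0.56), with groups that did not overlap. ITGB8 (ENSG00000105855, chromosome 7), whose tail lacks NPxY and whose product activates latent TGF-beta, was at 2.41, 2.34 and 2.56 FPKM in NC and at 2.22, 2.40 and 1.44 FPKM in shALKBH3. With all 6 libraries ITGB8 had the lowest log2 difference of the family, -0.20 (SE 0.158, limma adjusted p = 0.54). It was -0.05 without shALKBH3 replicate 3, where its main transcript ITGB8-201 was listed at 0. ITGAV lay below ITGB8 without that library (-0.37), without shALKBH3 replicate 2 (-0.41 against -0.29) and without NC replicate 3 (-0.22 against -0.18).

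Summed over genes, alpha subunits averaged 279 ± 25.4 FPKM over NC and 344.5 ± 25.35 FPKM over shALKBH3 libraries, and beta subunits 530.5 ± 28.6 and 805 ± 99.97 FPKM (SD of 3). The ratio of ITGB1 to all listed alpha subunits was 1.67, 1.47 and 1.70 in NC and 1.72, 2.09 and 2.35 in shALKBH3. Beta 1 RNA thus exceeded the alpha sum in every library, by the widest margin in shALKBH3 replicates 2 and 3. Sums follow ITGB1 and ITGA3, the most abundant members, and carry no test.

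By transcript, 44 integrin transcripts were listed and 36 tested, and 0 passed, where 0.471% of all tested transcripts did (limma, adjusted p under 0.05). At an unadjusted p under 0.05 there were 6 integrin transcripts (ITGB1-201, ITGB1-202, ITGB4-206, ITGA4-203, ITGA6-201 and ITGB5-208), against 9.75% of all tested transcripts, and the smallest adjusted p was 0.34. Of these ITGB1-202 (log2 difference -4.46) and ITGB5-208 (-1.96) were lower in shALKBH3, and the others were higher. In 12 of the 44 the value was 0 in at least 1 library, which in tables of estimates can be a failed estimate.

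Among the matrix ligands of these receptors, the laminin and collagen IV chains of basement membranes had the highest median difference of the 3 lists, except with genes of at least 5 FPKM alone, where the fibrillar collagens had 0.56 and they 0.37. In the list of laminin and collagen IV chains 2 of 13 tested genes rose and 0 fell, where 1.28% of all tested genes rose and 0.477% fell (limma, adjusted p under 0.05), and the median log2 difference was 0.36 against -0.01 over all genes. COL4A1, a chain of the collagen IV bound by alpha 1 beta 1, was at 83.9, 96.5 and 76.9 FPKM in NC and at 158, 149.9 and 157 FPKM in shALKBH3 (log2 0.85, limma adjusted p = 0.017). COL4A4, another collagen IV chain, rose as well, averaging 3.84 ± 0.588 FPKM over NC and 8.34 ± 0.377 FPKM over shALKBH3 libraries (SD of 3, log2 0.96, limma adjusted p = 0.023). Both calls were lost without NC replicate 1 (limma adjusted p = 0.086 and 0.11) and without each shALKBH3 library in turn (0.068 to 0.12), and COL4A4 also without NC replicate 3 (0.070). The replicate block lost both calls as well (limma adjusted p = 0.117 and 0.12). COL4A2, a further collagen IV chain, was at 126.7, 136.4 and 129.1 FPKM in NC and at 179.9, 135.7 and 158.6 FPKM in shALKBH3. Its groups overlapped (log2 difference 0.26, limma adjusted p = 0.31). In 9 of the 13 every knockdown library lay above every control, as in 12.9% of all tested genes, among them the laminin chains LAMB1 (79.4 ± 2.03 and 99.3 ± 6.89 FPKM) and LAMC1 (55.3 ± 7.29 and 71.2 ± 6.38 FPKM). LAMB3, a chain of the hemidesmosomal laminin, was the 1 gene of this list with every knockdown library below every control, averaging 17.1 ± 0.516 FPKM over NC and 11.4 ± 2.11 FPKM over shALKBH3 libraries (SD of 3, log2 difference -0.56, limma adjusted p = 0.14).

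None of the 6 tested fibrillar collagens passed, and their median was 0.19. At an unadjusted p under 0.05 were 3, all higher, where 8.98% of all tested genes were higher. COL5A2 and COL11A1 had the smallest adjusted p, with log2 differences of 0.79 and 0.81 (limma adjusted p = 0.086 and 0.11). COL3A1 and COL1A2 went the other way, with -1.03 and -0.93 (limma adjusted p = 0.40 and 0.49). Their groups overlapped, and NC replicate 1 was the highest library for each. None of 16 tested RGD ligands passed, although 7 were higher and 1 was lower by unadjusted p under 0.05 (8.98% and 8.15% of all tested genes), with a median log2 difference of 0.22. FBN1, a microfibril protein, was at 21.4, 24.2 and 17.2 FPKM in NC and at 33.1, 40.1 and 38.8 FPKM in shALKBH3 (log2 difference 0.81, limma adjusted p = 0.060). POSTN, a matrix protein bound by alpha V integrins, had 0.69 (adjusted p = 0.088). Fibronectin itself, FN1, averaged 168 ± 41.6 FPKM over NC and 169 ± 23.4 FPKM over shALKBH3 libraries (SD of 3).

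The lists of proteins inside the cell held differences of both signs, with medians near 0. Of 14 tested activators and inhibitors of integrins 1 fell and 0 rose, where 0.477% of all tested genes fell and 1.28% rose, with a median log2 difference of -0.04. The gene that fell was FLNA, encoding the actin cross-linker that competes with talin for the beta tail, from 99.4, 119 and 82.1 FPKM in NC to 37.7, 53.4 and 34.0 FPKM in shALKBH3 (log2 -1.25, limma adjusted p = 0.047). Its call was lost without any 1 library (limma adjusted p = 0.054 to 0.16), with equal totals (0.064), after quantile normalization (0.060), after the length and GC correction (0.058), with no variance trend (0.064) and with a pseudocount of 0.1 (0.051). Talin, TLN1, averaged 43.9 ± 4.94 FPKM over NC and 43.2 ± 0.884 FPKM over shALKBH3 libraries (SD of 3). None of 35 tested focal adhesion genes passed, with a median of 0.02 and 18 positive against 17 negative differences. The kinase gene PTK2, which encodes FAK, had the smallest adjusted p there, with 42.2, 47.9 and 43.3 FPKM over NC and 54.0, 63.2 and 65.0 FPKM in shALKBH3 (log2 difference 0.44, limma adjusted p = 0.11), followed by the actin regulator ENAH (0.37, 0.12). Both turned with the most abundant transcript alone, PTK2 to -2.22 and ENAH to -0.17.

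None of 18 tested tetraspanins and lateral partners passed, although by unadjusted p under 0.05 there were 3 higher and 1 lower (8.98% and 8.15% of all tested genes). CD47, a partner of beta 3 integrins, had a log2 difference of 0.47 and the tetraspanin TSPAN4 one of -0.82 (limma adjusted p = 0.19 and 0.24). None of 22 tested trafficking genes passed, although by unadjusted p under 0.05 there were 3 in each direction, where 8.98% of all tested genes were higher and 8.15% lower. DAB2, a clathrin adaptor for beta tails, had 0.48 and SNX17, which returns beta 1 from endosomes to the surface, -0.43 (limma adjusted p = 0.12 and 0.21). The medians of these lists, -0.03 and 0.04, lay close to that of all genes. With the most abundant transcript alone CD47 and DAB2 came to -0.005 and -0.007.

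**Figure D4:**
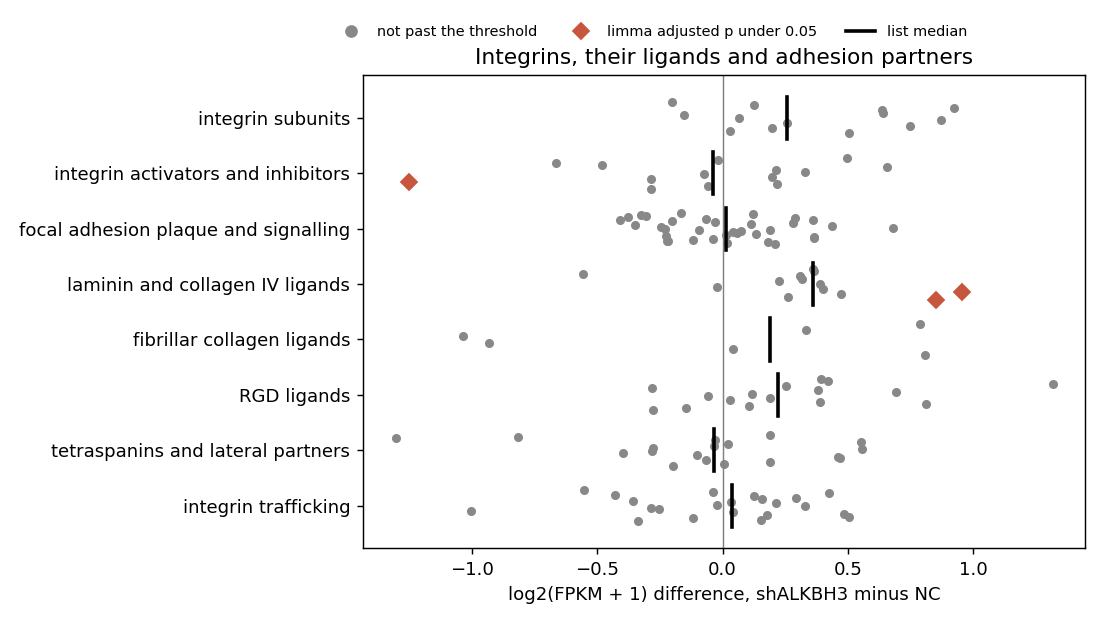
Log2(FPKM + 1) difference, shALKBH3 minus NC, of each tested gene in the integrin list and 7 lists of ligands and partners; black bars are list medians and red diamonds genes past the limma threshold. The medians of the laminin and collagen IV list (0.36), the integrins (0.26), the RGD ligands (0.22) and the fibrillar collagens (0.19) lie furthest to the right of 0, and the 3 genes past the threshold are COL4A1, COL4A4 and FLNA.

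For the 2 integrin genes with the largest difference, the genes with the most similar profile over the 6 libraries were sought, as the smallest root mean square difference of log2(FPKM + 1) values centred on each gene's mean. For ITGB4 these were PFKFB3 (0.064), a glycolytic regulator, SERPING1 (0.112), the complement C1 inhibitor, TMEM140 (0.135) and the peptide transporter gene TAP1 (0.138). PFKFB3, with 6.66, 5.97 and 6.31 FPKM over the controls and 13.3, 10.1 and 14.9 FPKM over the knockdown libraries, shared with ITGB4 the low shALKBH3 replicate 2. For ITGA6 they were DPP4 (0.112), a surface peptidase, MAN2A1 (0.126), a Golgi mannosidase, SLC38A9 (0.132), a lysosomal amino acid sensor, and ADAM9 (0.133), a surface metalloprotease that binds integrins. ADAM9 had 111, 137 and 84.7 FPKM over the controls and 162, 192 and 178 FPKM over the knockdown libraries, with NC replicate 3 lowest and shALKBH3 replicate 2 highest, as in ITGA6. Such shared low or high libraries follow from the search itself, which used these same 6 libraries.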

How the data were processed

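RNA from 3 NC and 3 shALKBH3 samples was sequenced from random-primed, dUTP-marked libraries, per the labels' protocols. The authors deposited FPKM for each transcript, per the file headers. The submitters' processing notes name hg19, HTSeq 0.6.0 and DESeq2 without roles, and neither aligner nor FPKM estimator nor annotation is given in the sources used here. In each of the 28900 listed transcripts the higher group mean was at least 0.5 FPKM, so a member can be listed through 1 group alone. Depth is unknown, and no counting interval is given.

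Transcript identifiers without suffix and version matched GENCODE release 29 in 28796 cases (99.6%), used for names, chromosome and transcript sequence. No coordinates are given because that release is on another build than the notes name. FPKM were summed per gene, and 10475 genes averaging 1 FPKM or more were tested on log2(FPKM + 1) with limma 3.58.1 in R 4.3.3 (variance trend, two-sided moderated test, Benjamini-Hochberg over all tested genes, threshold 0.05). Transcripts, including the 104 unmatched, were tested in the same way. The fit was also run on simulated data, and the outcome is not reported here. Tables used pandas 2.3.3 under Python 3.11.15. Tail forms were assigned by shared coding ends and named from general knowledge.

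The members and lists were chosen with earlier results of these data known. Genes were named by rule: every listed integrin gene, ALKBH3, of each list the members past the threshold or else the 2 with the smallest adjusted p, and the 4 genes most like each of the 2 integrin genes with the largest difference. Marker genes were named beside these. COL4A2, LAMB1, LAMC1, LAMB3, FN1 and TLN1 were named too, after their values were seen. Alternatives changed the pseudocount, filter, scaling, gene summary, variance model, length and GC correction, replicate block and the libraries included.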

Additional observations from a re-analysis of the deposited data

How the results depend on the processing

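The genes past the threshold numbered 184 (134 higher, 50 lower), and 175 with equal totals (151 higher, 24 lower), 105 with the most abundant transcript per gene, 480 with array weights, 20 with the replicate block and 48 to 109 without 1 library. No integrin gene passed in 11 of the 17 alternatives; 2 passed with equal totals, 2 with array weights, 2 after the length and GC correction (ITGB1 and ITGB4 each time), 1 after quantile normalization (ITGB1) and 0 to 1 without 1 library (ITGB1 without shALKBH3 replicate 1, ITGB4 without shALKBH3 replicate 2). Integrin transcripts past the threshold numbered 0 to 1 without 1 library (ITGB1-202 without NC replicate 1) and 0 with other pseudocounts, other filters and the replicate block; the other alternatives were not run on transcripts. Genes of the ligand and partner lists past the threshold numbered 3, and 5 with the most abundant transcript, 13 with array weights, 1 with the replicate block and 0 to 4 without 1 library. The cause of these shifts was not tested.

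Of 217 values of single integrin genes under alternatives, 201 kept direction and call, 9 passed the threshold and 7 changed sign, none of them past it. ITGA2 was -0.14 after the length and GC correction, and between -0.056 and 0.103 without 1 library, below 0 without NC replicate 3 (-0.045) and without shALKBH3 replicate 2 (-0.056). ITGA7 was -0.09 without shALKBH3 replicate 1, at most 0.187 without another library and 1.28 with the most abundant transcript (limma adjusted p = 0.45). ITGAV was 0.23 with the most abundant transcript, 0.042 with array weights and between -0.412 and 0.324 without 1 library, the latter without shALKBH3 replicate 1. ALKBH3 missed the threshold with the most abundant transcript (limma adjusted p = 0.063), the replicate block (0.098) and without NC replicate 1 (0.051). Same-numbered libraries did not deviate together (r = -0.09, 0.08 and -0.01), so the replicate number is not taken as a pairing, and under the replicate block the limma adjusted p of ITGB1 was 0.22 and of ITGB4 0.12. With depth unknown, what the low genes ITGA1, ITGA2, ITGB3 and ITGB8 could show is not known.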
